A study of Macaca mulatta with 12 samples.

Results

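Cyclic AMP and cyclic GMP are small intracellular messengers. Adenylyl and guanylyl cyclases make them, phosphodiesterases degrade them, and the cAMP-dependent and cGMP-dependent protein kinases act on their targets when the messengers bind. In the brain these enzymes set how strongly neurons respond to neuromodulators such as dopamine and noradrenaline, and in blood vessel walls cGMP made in response to nitric oxide relaxes contractile cells.

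The enzymes of this pathway were followed through nuclei of the rhesus macaque amygdala. Members were all rows of the deposited count table whose gene symbol is PDE or ADCY followed by a digit, apart from the ADCYAP genes, or begins with GUCY, PRKAR, PRKACA, PRKACB or PRKG. The rule found 46 of 19708 gene rows: 10 adenylyl cyclases, 5 guanylyl cyclase subunits or receptors, 21 phosphodiesterase subunits, 5 subunits of the cAMP-dependent kinase, 2 cGMP-dependent kinases and 3 genes that share only the letters of the name. Those 3 are PDE4DIP (myomegalin, an anchoring protein), PDE6D (a carrier of prenylated proteins) and PDE12, which acts on RNA. Row names gave 41 members, and a reference table of gene identifiers gave the other 5, PDE4C, PDE6G, PDE11A, PRKAR1A and PRKG2. In the nuclei kept, 45 members held at least 50 UMIs (unique molecular identifiers, each standing for 1 captured transcript) and GUCY2F, a photoreceptor guanylyl cyclase, held fewer.

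The study is single-nucleus RNA sequencing of frozen amygdala, with 12 labelled samples in 1 group; the labels name no genotype, age or treatment. The table pools 26400 nuclei with a median of 5053.5 UMIs and 151526883 UMIs in all, and no label ties a nucleus to a sample or animal. It therefore counts as 1 sample: differences between classes of nuclei have no replicate check, no test was possible, and no p-value is given. Barcodes fall into 3 sets by their ending, with 20 to 26 barcodes shared by any pair of sets and 0 by all of them. The sets serve only to see whether a direction recurs. They split 1 pooled table and no label says what a set stands for, so recurrence cannot be read as replication. The share of held-out genes that recur was not computed.

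After presumed doublets were left out, 24538 nuclei were clustered without the members and named from marker genes. They comprised 11214 excitatory and 4117 inhibitory neurons, 6016 astrocyte-like, 794 ependymal-like, 440 oligodendrocyte-like, 384 oligodendrocyte-precursor-like, 68 committed-precursor-like, 102 microglia-like, 130 endothelial-like and 156 mural-like nuclei, and 1117 unnamed nuclei. The endings in "-like" are dropped from here on. Among the excitatory neurons 5277 lay in clusters high in PROX1, a transcription factor known from dentate granule neurons, and are called granule-like; 5937 did not. Levels are CPM, counts of a gene scaled to a fixed total of UMIs per class, with 95% Poisson intervals that cover counting error only, and a member was called different where its levels differed at least 2-fold with enough UMIs to see it.

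The members differed widely in how evenly they were spread. Over the classes in which a gene had at least 10 UMIs, the highest level was 1.66 to 3.06 times the lowest for the 5 cAMP-dependent kinase subunits, with PRKACA, a catalytic subunit, the most even. Among those classes PRKACA had its highest level in mural cells (86.9 CPM) and its lowest in precursors (52.3 CPM). PRKAR2A, a regulatory subunit, had them in inhibitory neurons (179 CPM) and endothelial cells (96.8 CPM). The rule leaves out low classes: PRKAR2B was at 24.8 CPM in mural cells on 6 UMIs, against 97.9 CPM in inhibitory neurons, and was called lower in 2 comparisons below. The adenylyl cyclases had a median ratio of 10.3 and the phosphodiesterases of 9.91, against 2.3 for the kinase subunits. The widest ratios belonged to ADCY7 (293-fold), ADCY4 (242-fold), PDE4C (222-fold) and PDE3A (129-fold). Of the 45 members with at least 50 UMIs, 13 were highest in mural cells, 8 in excitatory neurons and 5 in inhibitory neurons, and each other class was highest for 2 or 3. No share over all genes was computed for these counts. The mural class is small, and PRKACA was highest there on 21 UMIs, at only 1.01 times its level in microglia. In the 8 comparisons that follow, 35 members were called at least once, a count with no share over all genes beside it. The 11 never called were ADCY10 (soluble adenylyl cyclase), the kinase subunits PRKACA, PRKACB, PRKAR1A and PRKAR2A, the cAMP phosphodiesterase PDE7A, the photoreceptor genes PDE6C, PDE6G and GUCY2F, and PDE6D and PDE12; GUCY2F had too few UMIs to be measured and PDE6G could be measured once.

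**Figure D1:**
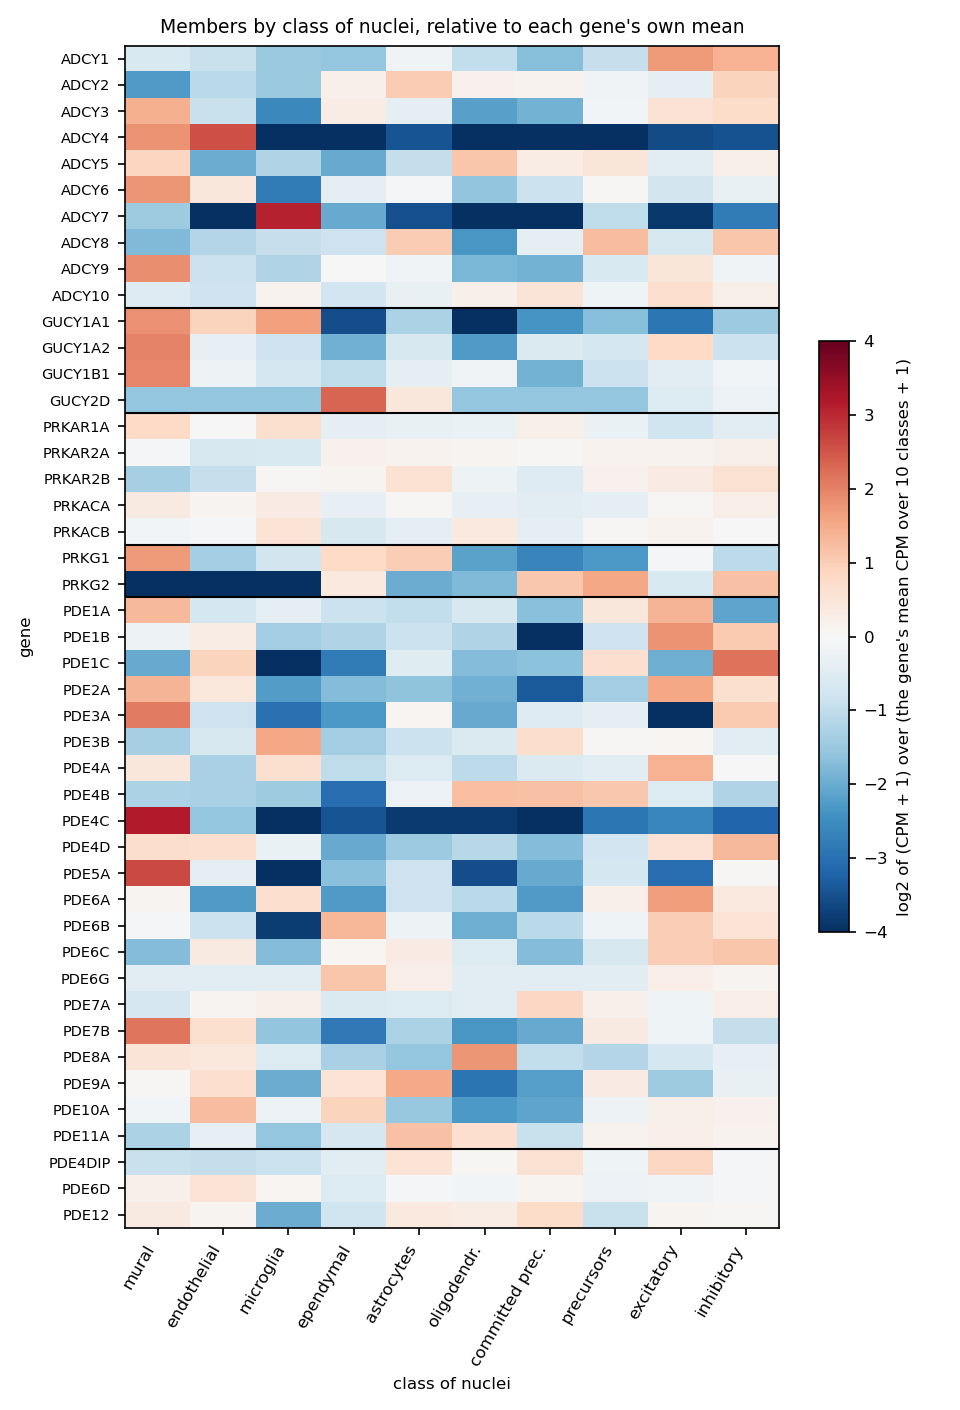
Levels of the 45 members with at least 50 UMIs (down, grouped by role between black lines) in 10 classes of nuclei (across), as the log2 of CPM plus 1 over the gene's own mean plus 1. The rows of the cAMP-dependent kinase subunits are pale throughout. The mural column holds the highest level of 13 members, a count with no share over all genes beside it.

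Excitatory and inhibitory neurons differed in phosphodiesterases, cyclases and a cGMP-dependent kinase. Of 44 members measured, 4 had at least 2-fold more in excitatory neurons, beside 8.63% of all genes held out of the clustering, a share near that background. At least 2-fold less was seen for 9, beside 8.26% of those genes. The higher ones were PDE1A, GUCY1A2, PDE4A and PDE6A, and the lower ones PDE3A, PDE1C, PDE5A, PRKG2, ADCY7, ADCY8, GUCY1A1, ADCY2 and PDE9A. All 13 differences had the same direction in the 3 barcode sets, with no share over all genes to set beside this. The median log2 ratio of the measured members was -0.08, against -0.10 for all held-out genes.

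PDE3A, a cAMP phosphodiesterase that cGMP inhibits, had the widest gap. Its level in excitatory neurons was 10.9, 10.1 and 10.6 CPM in barcode sets 1, 2 and 3, against 676, 589 and 694 CPM in inhibitory neurons. The level was 62.0-fold lower in excitatory neurons (log2 -5.95, 95% counting interval -6.05 to -5.86). PDE1A and PDE1C, both activated by calcium and calmodulin, ran in opposite directions. PDE1A had 1198, 1190 and 1216 CPM in excitatory neurons, against 116, 99.6 and 107 CPM in inhibitory neurons, and was 11.2-fold higher (log2 3.48, 3.42 to 3.54). PDE1C had 3.98, 3.83 and 5.17 CPM in excitatory neurons, against 92.8, 81.6 and 103 CPM in inhibitory neurons, a level 21.4-fold lower (log2 -4.42, -4.58 to -4.27).

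Enzymes of the cGMP branch also split between the neuron types. PDE5A, the cGMP-specific target of sildenafil, had 7.27, 7.48 and 8.09 CPM in excitatory neurons, against 69.2, 70.9 and 81.1 CPM in inhibitory neurons, 9.67-fold lower. PRKG2, the membrane-bound cGMP-dependent kinase, had 9.39, 10.5 and 9.82 CPM in excitatory neurons and 36.9, 32.7 and 39.5 CPM in inhibitory neurons, 3.67-fold lower. The soluble guanylyl cyclase that responds to nitric oxide pairs an alpha subunit with the beta subunit GUCY1B1, and its alternative alpha subunits differed in direction. GUCY1A2 had 144, 147 and 149 CPM in excitatory neurons, against 47.2, 47.2 and 43.6 CPM in inhibitory neurons, 3.19-fold higher. GUCY1A1 had 19.1, 19.6 and 19.1 CPM in excitatory neurons, against 56.2, 50.6 and 52.4 CPM in inhibitory neurons, 2.76-fold lower. GUCY1B1 stayed within 2-fold, with 48.9 CPM in excitatory and 59.8 CPM in inhibitory neurons.

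Of 9 adenylyl cyclases measured, 0 were called higher in excitatory neurons and 3 were called lower. ADCY8, stimulated by calcium and calmodulin, had 70.9, 72.9 and 73.2 CPM in excitatory neurons, against 238, 258 and 244 CPM in inhibitory neurons, 3.41-fold lower. ADCY2 had 192, 182 and 184 CPM in excitatory and 458, 425 and 465 CPM in inhibitory neurons, 2.41-fold lower. ADCY7 was near the limit of counting in both, with 68 UMIs (0.72 CPM) in excitatory and 65 UMIs (2.62 CPM) in inhibitory neurons. ADCY1, the other neuronal calcium-stimulated cyclase, stayed within 2-fold, at 185 CPM in excitatory and 150 CPM in inhibitory neurons. Of the remaining phosphodiesterases, PDE4A, specific for cAMP, had 132, 138 and 136 CPM in excitatory neurons against 48.6, 50.9 and 52.9 CPM in inhibitory neurons, 2.67-fold higher. PDE6A, known as a catalytic subunit in rod photoreceptors, had 14.7, 14.1 and 14.1 CPM in excitatory neurons against 5.61, 5.47 and 4.73 CPM in inhibitory neurons. PDE9A, a cGMP phosphodiesterase, had 19.6, 20.6 and 20.6 CPM in excitatory neurons against 38.1, 48.1 and 48.1 CPM in inhibitory neurons, and was called 2.2-fold lower. With the mean of per-nucleus CPM the PDE9A difference ended below 2-fold (log2 -0.95), and without the granule-like cluster 7 members were higher, PDE2A, PDE4B and PRKG1 being added.

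Genes that act around the enzymes, taken from lists written for the pathway, were read the same way. Of 6 G proteins acting on adenylyl cyclase 0 were called higher in excitatory neurons and 2 were called lower: GNAS, the stimulatory subunit, had 102 CPM in excitatory and 346 CPM in inhibitory neurons, and GNAI2, an inhibitory subunit, had 22.6 CPM in excitatory and 46.4 CPM in inhibitory neurons. Of 15 anchoring proteins of the cAMP-dependent kinase, CMYA5 was higher (13.1 CPM in excitatory, 3.19 CPM in inhibitory neurons) and AKAP12 lower (18.4 CPM in excitatory, 76.6 CPM in inhibitory neurons). Among 10 other effectors measured, 3 were higher: CNGB1, a cyclic nucleotide-gated channel subunit, was 14.8-fold higher, and the cAMP-binding Popeye proteins BVES and POPDC3 were 5.16-fold and 4.15-fold higher. RAPGEF3, an exchange factor activated by cAMP, was 4.91-fold lower and HCN4, a cyclic nucleotide-modulated pacemaker channel, 4.61-fold lower. ARPP21, a substrate of the cAMP-dependent kinase, was the 1 of 14 inhibitors, substrates and transcription factors that differed, with 1190 CPM in excitatory and 178 CPM in inhibitory neurons. NOS1, the neuronal nitric oxide synthase, had 12.9 CPM in excitatory and 163 CPM in inhibitory neurons, 12.6-fold lower, and NPR3, a clearance receptor for natriuretic peptides, was 5.16-fold lower. NPPA, which encodes a natriuretic peptide, was 6.83-fold higher but rested on 5 UMIs in inhibitory neurons. The medians of these lists lay between -0.29 and 0.17 on the log2 scale, against -0.10 for all held-out genes.

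**Figure D2:**
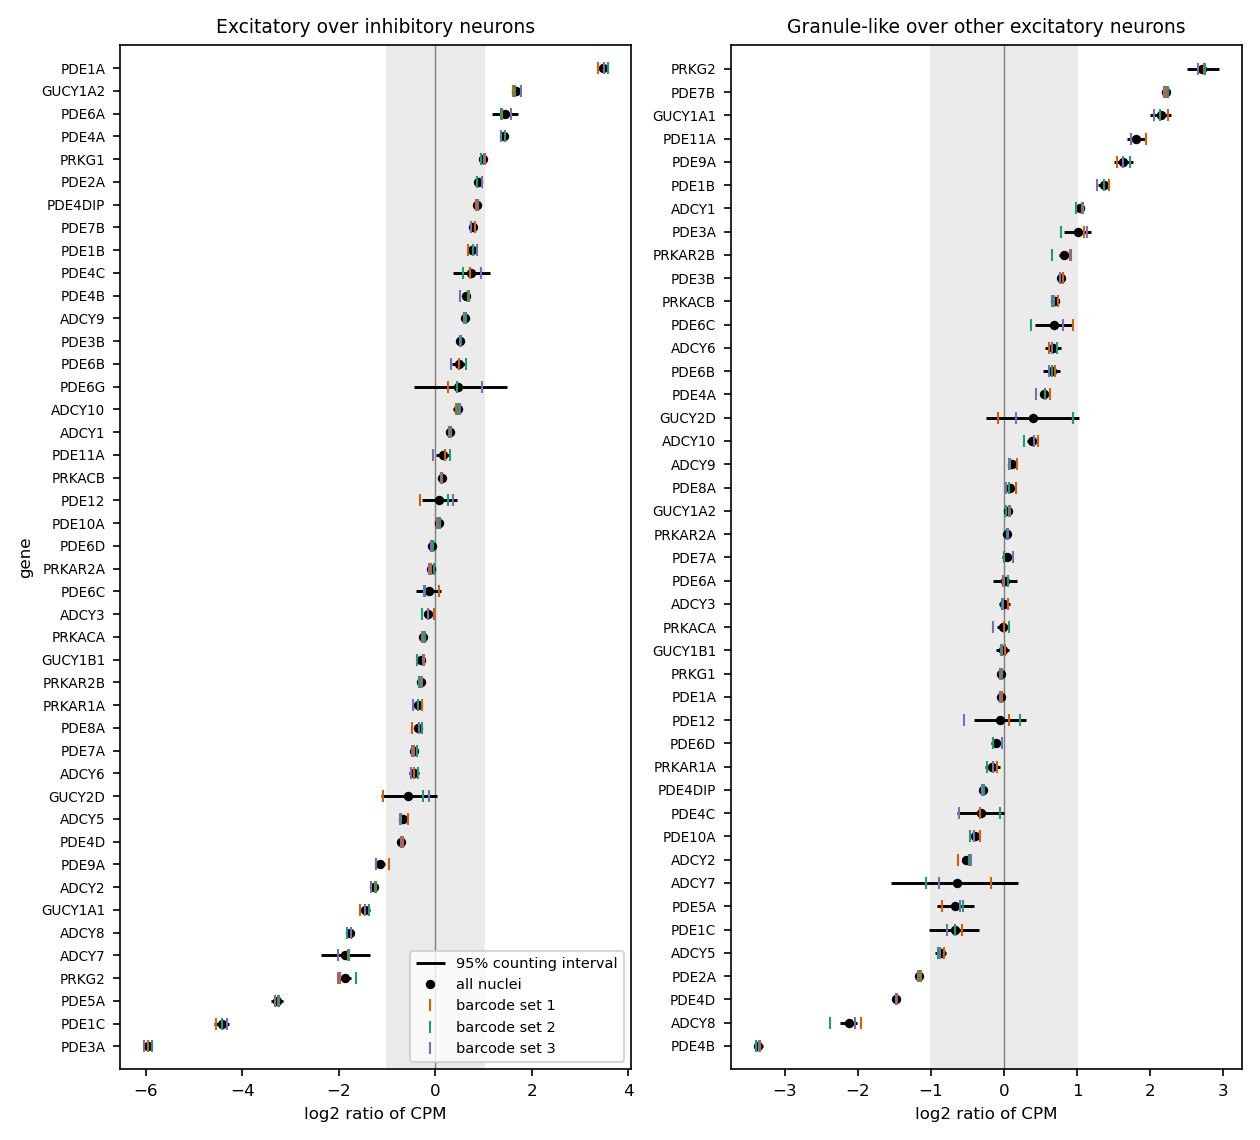
Log2 ratios of CPM for the measured members, excitatory over inhibitory neurons (left, 44 members) and granule-like over other excitatory neurons (right, 43 members), with 95% counting intervals as black lines, barcode sets as coloured ticks and the range within 2-fold shaded. PDE1A lies farthest right and PDE3A farthest left in the left panel, and PRKG2 and PDE4B mark the ends of the right panel.

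Within the excitatory neurons, the granule-like nuclei carried less PDE4B and PDE4D and more PDE7B, all of them phosphodiesterases specific for cAMP. Of 43 members measured, 8 were at least 2-fold higher in granule-like nuclei, where 5.71% of held-out genes were, and 4 were at least 2-fold lower, where 7.61% were. All 12 differences recurred in direction in the 3 barcode sets, with no share over all genes to set beside this. The median log2 ratio was 0.04, against 0.07 for all held-out genes.

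PDE4B had 83.7, 79.0 and 80.9 CPM in granule-like nuclei, against 843, 831 and 827 CPM in the other excitatory neurons, a level 10.3-fold lower (log2 -3.36, -3.42 to -3.30). PDE4D had 1068, 1052 and 1062 CPM in granule-like nuclei and 2954, 2918 and 2946 CPM in the others, 2.77-fold lower. PDE7B had 628, 653 and 646 CPM in granule-like nuclei, against 134, 137 and 142 CPM in the others, 4.67-fold higher (log2 2.22, 2.19 to 2.26). For each of these genes the direction recurred in every barcode set, with no share over all genes beside it.

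Some members of the cGMP branch were higher in the granule-like nuclei, among them 1 of 4 guanylyl cyclase genes measured and 1 of 2 cGMP-dependent kinases. GUCY1A2, GUCY1B1, PRKG1 and PDE5A were not called. PRKG2 had 22.6, 24.5 and 22.4 CPM in granule-like nuclei and 3.39, 3.63 and 3.57 CPM in the other excitatory neurons, 6.58-fold higher. GUCY1A1 had 41.7, 40.7 and 38.7 CPM in granule-like nuclei, against 8.77, 9.25 and 9.37 CPM in the others, 4.43-fold higher, beside 53.1 CPM in inhibitory neurons. PDE9A had 35.8, 38.7 and 37.6 CPM in granule-like nuclei and 12.2, 11.7 and 12.2 CPM in the others, 3.11-fold higher. PDE11A and PDE1B, which degrade both messengers, were 3.5-fold and 2.57-fold higher. PDE11A had 50.5 CPM in granule-like nuclei against 14.4 CPM in the others, with log2 ratios of 1.95, 1.74 and 1.73 in the barcode sets. PDE1B had 119, 117 and 112 CPM in granule-like nuclei against 43.9, 45.2 and 46.5 CPM in the others.

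The calcium-stimulated cyclases went in opposite directions. ADCY1 had 282, 281 and 292 CPM in granule-like nuclei, against 134, 142 and 138 CPM in the other excitatory neurons, and ADCY8 had 23.8, 19.1 and 23.7 CPM in granule-like nuclei, against 92.3, 99.4 and 97.7 CPM in the others. ADCY8 was 4.35-fold lower; ADCY1 was 2.07-fold higher, and ended below 2-fold when nuclei were thinned to equal depth (log2 0.84). PDE2A, a phosphodiesterase that cGMP stimulates, had 106, 107 and 106 CPM in granule-like nuclei and 233, 239 and 241 CPM in the others, 2.24-fold lower. PDE3A was only just over the threshold at 2.01-fold higher, with 17.2, 14.0 and 16.7 CPM in granule-like nuclei against 8.05, 8.14 and 7.59 CPM in the others, and it ended below 2-fold with presumed doublets kept (log2 0.38), after thinning (log2 0.94) and without barcode set 1 (log2 0.96) or 3 (log2 0.94). Around the enzymes, CNGB1 had 101 CPM in granule-like nuclei against 6.38 CPM in the others, 15.9-fold higher. AKAP13, NPR3, PKIB and PPP1R1B were also called higher, and BVES, GNAI1, POPDC3, RAPGEF3 and AKAP12 lower.

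Neuronal sub-clusters showed which neurons held the enzymes. A member was called where some sub-cluster had at least 50 UMIs of it at 2 or more times the mean of the other sub-clusters. Among 13 inhibitory sub-clusters 14 of 37 measured members were called, against 16.5% of all held-out genes, and among 14 excitatory ones 15 of 40, against 20.1%. A member could be admitted only through the sub-cluster where it was high, so these counts rest in part on members admitted that way. The same rule admitted the held-out genes. Sub-clusters are described by the subtype genes highest in them.

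The highest inhibitory level of PDE3A lay in nuclei high in GPC5, CNR1 and HTR3A (407 nuclei). PDE3A had 2497, 2248 and 2387 CPM there, 4.4-fold above the mean of the others, and PDE5A had 355, 357 and 391 CPM, 8.05-fold above. PDE3A was also 2.69-fold above in a MEIS2 and RELN sub-cluster of 119 nuclei (1644, 1434 and 1760 CPM). PDE1C was called in the CRH and CALB2 sub-cluster (445, 378 and 419 CPM, 4.34-fold), in the ST18 and ADARB2 sub-cluster (344, 262 and 330 CPM, 3.03-fold) and in the CRH, ST18 and VIP sub-cluster (313, 253 and 308 CPM, 2.81-fold). These 3 sub-clusters were also the ones called for PDE4B, at 2.06-fold, 2.13-fold and 3.05-fold. PDE7B was called once, in the CRH and CALB2 nuclei (989, 1031 and 1161 CPM, 6.18-fold).

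The cGMP-dependent kinases were called in sub-clusters described by LHX6, a transcription factor of interneurons from the medial ganglionic eminence, or by SST and NPY. PRKG1, the widely expressed form, was 3.43-fold above the mean in the LAMP5 and LHX6 sub-cluster (1877, 1837 and 1878 CPM) and 2.44-fold in the LHX6 and PVALB sub-cluster (1365, 1480 and 1383 CPM). PRKG2 was 4.5-fold above the mean in the SST and NPY sub-cluster (106, 95.8 and 136 CPM), 2.81-fold in the LHX6 and PVALB one and 2.04-fold in the NPY, SST and LHX6 one. ADCY1 was called in the LHX6 and PVALB nuclei (342, 345 and 320 CPM, 2.8-fold) and in a sub-cluster of 85 nuclei high in HTR1F and LHX6 (293, 315 and 299 CPM, 2.47-fold). Those 85 nuclei were also called for PDE4D (8127, 8972 and 8954 CPM, 2.73-fold), PDE9A (3.58-fold), PDE5A (2.96-fold) and PDE2A (2.09-fold); with presumed doublets kept, PDE2A was called in no inhibitory sub-cluster. PDE1A, low in inhibitory neurons, was 3.12-fold above the mean in the SST and NPY sub-cluster, PDE1B was 2.34-fold above in the LAMP5 and RELN sub-cluster, and GUCY1A1 was 2.31-fold above in the ST18 and ADARB2 sub-cluster.

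Among excitatory sub-clusters, PDE7B was called in the 4 granule-like ones, between 2.16-fold and 3.65-fold. PRKG2 was called in 2 of the 4 (3.6-fold and 4.43-fold) and GUCY1A1 in the other 2 (4.2-fold and 2.1-fold). Single granule-like sub-clusters were also called for PDE9A, PRKAR2B and PDE3A, and 2 for PDE1B, between 2.03-fold and 2.13-fold. Outside them, a FOXP2 and TLE4 sub-cluster of 153 nuclei had 178, 130 and 132 CPM of PDE9A, 7.85-fold above the mean of the others, and 2.32-fold more PDE7A. A GPC5 sub-cluster of 140 nuclei had 113, 144 and 93.2 CPM of PDE11A (5.64-fold) and 366, 373 and 359 CPM of ADCY8 (4.32-fold). PDE11A was also called in 1 granule-like sub-cluster (70.7 CPM, 2.86-fold). ADCY2 was highest in a GPC5 and CCK sub-cluster of 914 nuclei (599, 605 and 588 CPM, 3.12-fold). PDE10A, known from striatal projection neurons, was called in the HTR1F and TSHZ2 sub-cluster of 72 nuclei (303, 481 and 404 CPM, 2.44-fold), and PDE5A in a NECTIN3 sub-cluster (17.1 CPM, 2.89-fold). ADCY2 was also called in the FOXP2 and TLE4 nuclei (2.12-fold) and the HTR1F and TSHZ2 nuclei (2.2-fold), and ADCY8 in the MEIS2 nuclei (2.24-fold). PDE3B was called in the UGT8 and CARTPT nuclei (2.26-fold), and PDE4B there and in the RGS14 nuclei (2.07-fold and 2.14-fold). With presumed doublets kept, PDE4B was called in no excitatory sub-cluster.

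**Figure D3:**
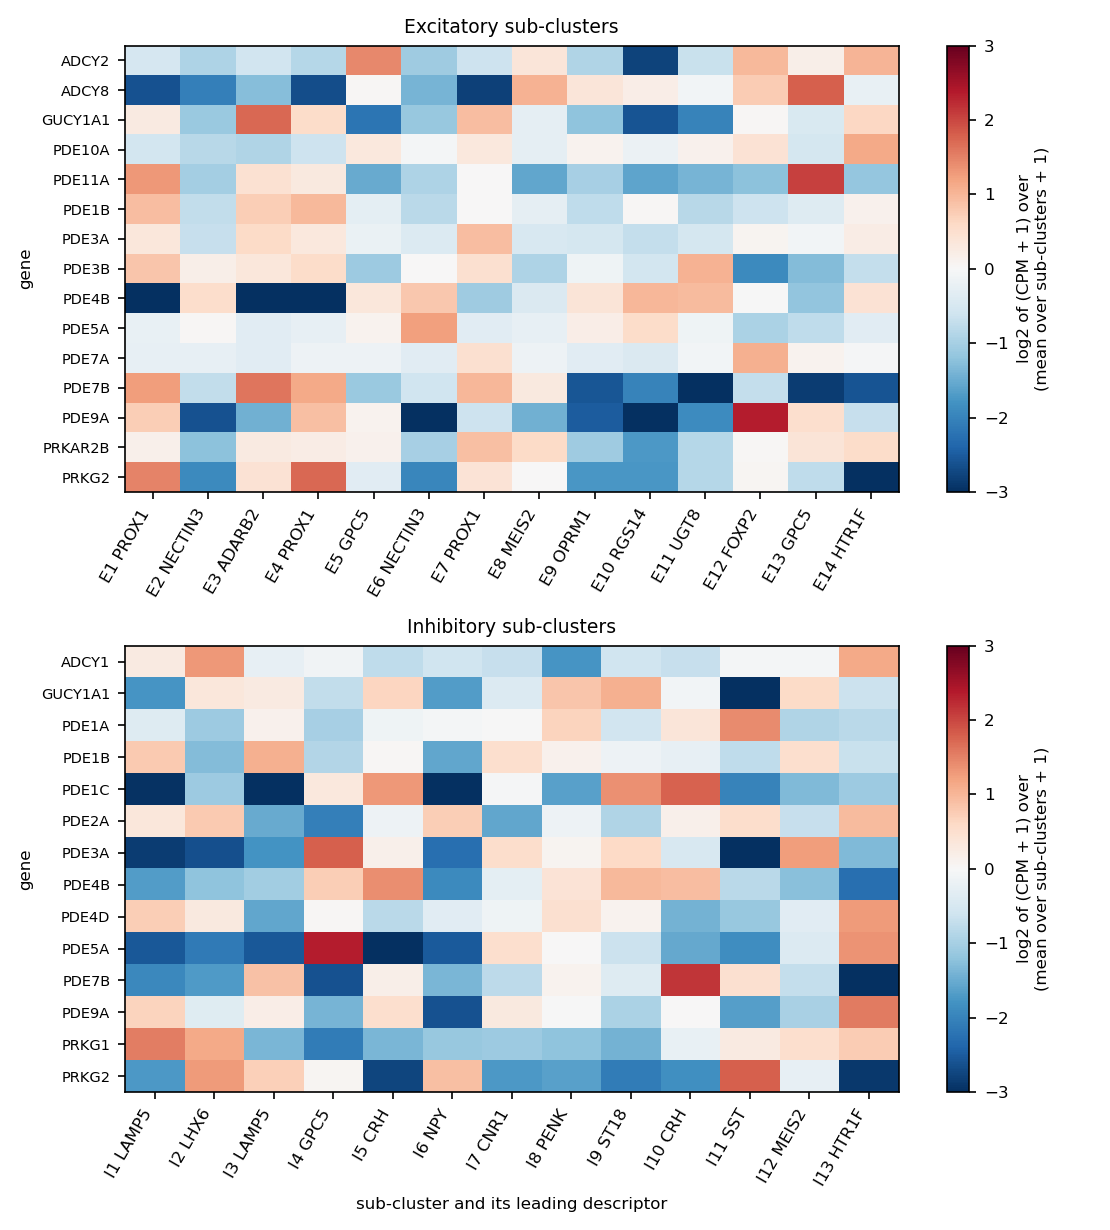
Members called in at least 1 neuronal sub-cluster, excitatory above (15 members, 14 sub-clusters) and inhibitory below (14 members, 13 sub-clusters), as the log2 of CPM plus 1 over the mean of the sub-clusters plus 1. Columns carry the sub-cluster's number and leading subtype gene, and among the highest ratios are PDE9A in the FOXP2 column, PDE5A in the GPC5 inhibitory column and PDE7B in a CRH column.

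Outside the neurons, levels in a class were set against the mean of the other 9 classes, and 1 class with a very high level can make the others lower than that mean. Each count is therefore also given against the median of the other classes, an alternative chosen after the data were seen. The share of held-out genes was computed against the mean only, so the counts against the median have no background beside them. In astrocytes, ependymal cells, oligodendrocytes, microglia and endothelial cells the shares of members that were higher lay near or below the background given beside them, so those members are described 1 by 1. Free neuronal RNA is a limit here: RBFOX3, a neuronal transcript, stood at 3.66% to 14.9% of its neuronal level in the 8 glial and vascular classes, while NRGN stood at 19.1% to 162%, and the part of this RNA in the glial levels was not tested.

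Mural cells, the contractile and pericyte-type cells of vessel walls, had 15 members called higher, more than any other class set against the rest, and carried both cyclase and kinase of the cGMP branch. Of 34 members measured, 15 were at least 2-fold higher in mural cells than in the mean of the other classes, where 11.9% of held-out genes were, and 5 were lower, where 16.1% were. Against the median, where no share of held-out genes was computed, the counts were 19 and 3, and the 15 higher members were all among the 19. The median log2 ratio of the measured members was 0.70, against 0.04 for all held-out genes. ADCY3, ADCY4, ADCY6, PDE4C and PDE5A could be measured only through their high mural level. The count of higher members and this median therefore rest in part on members admitted that way. The held-out genes were admitted by the same rule. The 8 mural markers were all detected and summed to 3787 CPM. In the same nuclei 8 of 8 astrocyte markers summed to 1705 CPM, 3 of 3 fibroblast markers to 286 CPM and 7 of 8 endothelial markers to 62.1 CPM, and the part of those cells' RNA in the mural levels was not tested.

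Both alpha subunits and the beta subunit of the soluble guanylyl cyclase were higher together. GUCY1A1 had 450, 487 and 652 CPM in mural cells, against a mean of 106 CPM in the other classes, 4.91-fold higher. GUCY1A2 had 371, 284 and 356 CPM, against 56.0 CPM, 5.91-fold higher, and GUCY1B1 had 238, 254 and 267 CPM, against 44.3 CPM, 5.7-fold higher. PRKG1, the kinase that carries the cGMP signal in smooth muscle, had 5347, 5010 and 5409 CPM in mural cells, against 1204 CPM, 4.34-fold higher. MRVI1, its substrate in smooth muscle, had 157 CPM in mural cells against 27.1 CPM, 5.81-fold higher.

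The phosphodiesterases that were higher in mural cells included the cGMP-specific PDE5A and the cGMP-inhibited PDE3A. PDE5A had 344, 436 and 578 CPM in mural cells, against a mean of 29.0 CPM in the other classes, 15.4-fold higher (log2 3.95, 3.66 to 4.22). PDE3A had 1284, 1268 and 1556 CPM, against 202 CPM, 6.69-fold higher. PDE4C, a cAMP-specific form, had 265, 254 and 370 CPM in mural cells, against 2.77 CPM, 105-fold higher (log2 6.71, 6.35 to 7.04), and the next level was 10.0 CPM in endothelial cells, on 3 UMIs. PDE7B had 1575, 1440 and 1497 CPM against 210 CPM (7.14-fold), and PDE2A had 132, 243 and 119 CPM against 54.6 CPM (3.18-fold). PDE1A had 1218, 1288 and 830 CPM against 392 CPM (2.91-fold). PDE1A was as high in excitatory neurons, at 1201 CPM.

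Adenylyl cyclases completed the list. ADCY9 had 874, 1085 and 978 CPM in mural cells, against 195 CPM, 5.09-fold higher. ADCY6, a form inhibited by calcium, had 172, 172 and 193 CPM against 37.2 CPM, 4.78-fold higher, and ADCY3 had 119, 81.1 and 178 CPM against 35.6 CPM, 3.37-fold higher. ADCY4 was 5.13-fold higher on 14 UMIs, and ADCY5 2.02-fold higher on 54 UMIs. ADCY5 ended below 2-fold with presumed doublets kept (log2 0.14), where the class held 17 UMIs of it. It also ended with the mean of per-nucleus CPM (log2 0.91) and without barcode set 2 (log2 0.85). ADCY2 was 5.3-fold lower in mural cells (49.7 CPM against 263 CPM), ADCY8 3.73-fold lower on 8 UMIs and PRKAR2B 2.75-fold lower on 6 UMIs. PDE3B and PDE4B were 2.69-fold and 2.57-fold lower than the mean and were not called against the median. NOS1 was at 8.28 CPM on 2 UMIs, against 43.1 CPM, and its direction did not recur in every set.

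**Figure D4:**
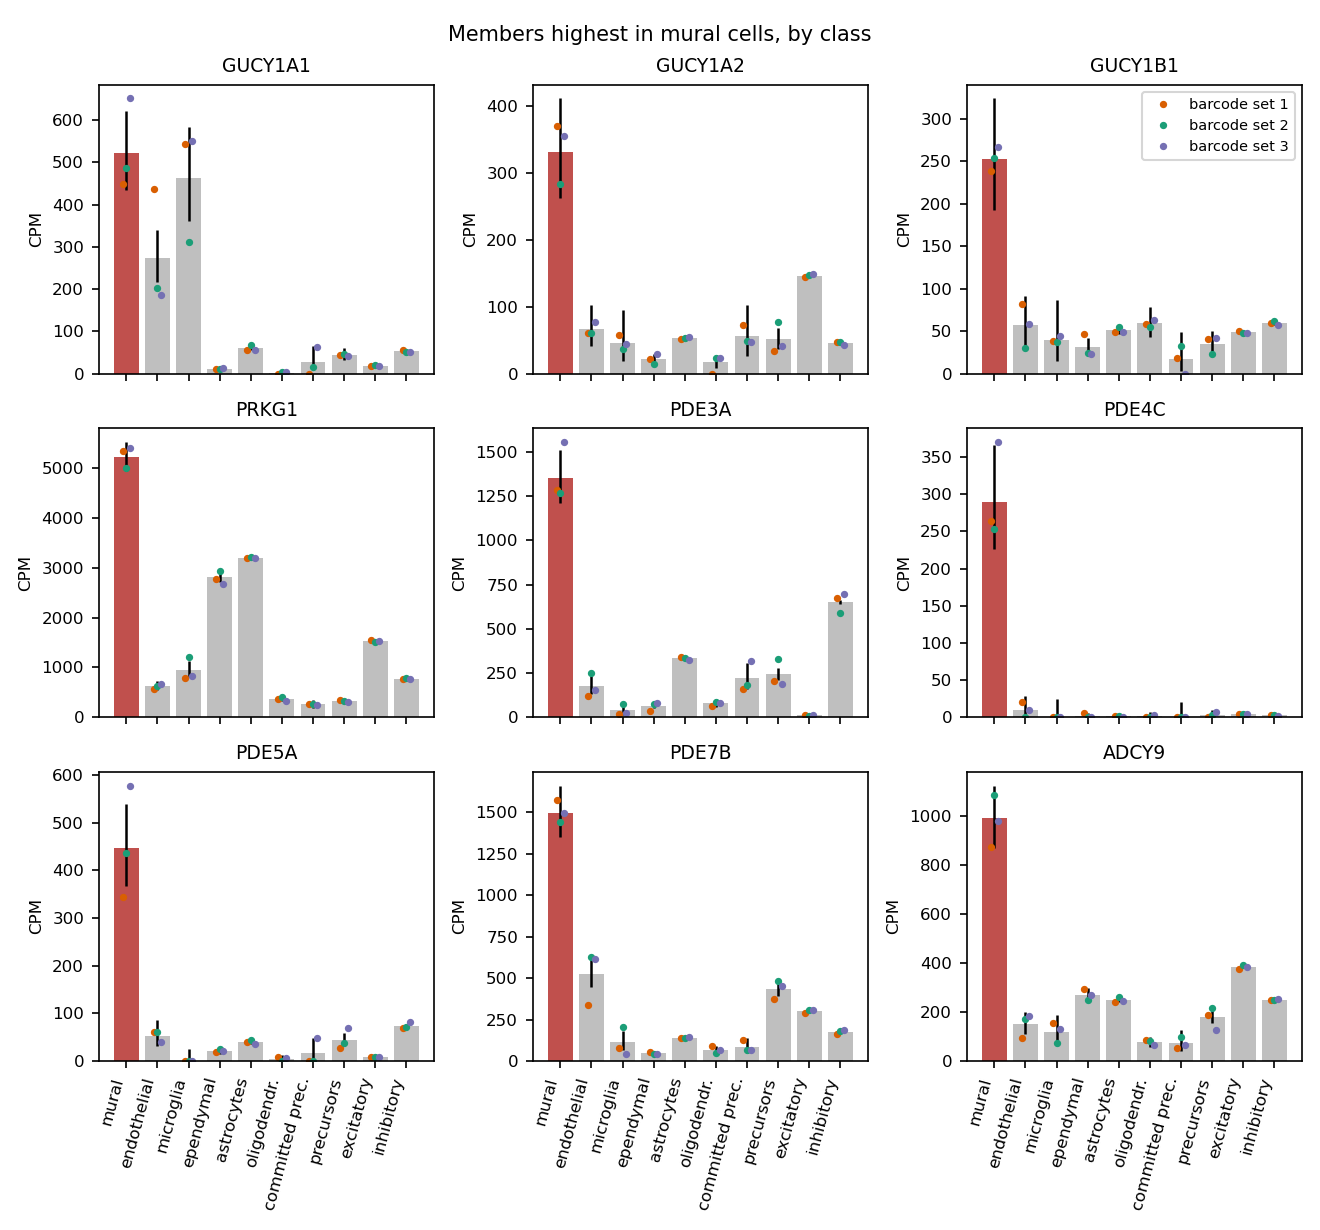
CPM of 9 members that were highest in mural cells (red bar) and in the other 9 classes (grey bars), with 95% counting intervals as lines, the 3 barcode sets as points and a linear axis from 0 in each panel. GUCY1A1 is also high in endothelial cells and microglia, PRKG1 in astrocytes and ependymal cells, and PDE4C is near 0 outside mural cells.

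Endothelial cells had fewer members called than mural cells. Of 35 members measured, 4 were at least 2-fold higher than the mean of the other classes, where 13.2% of held-out genes were, and 9 were lower, where 16.8% were; against the median the counts were 10 and 3. The 6 members added against the median were PDE2A, PDE4D, PDE5A, PDE7B, PDE8A and PDE9A, with log2 ratios between 1.01 and 2.10, and the first 5 of these were also called against the median in mural cells. Of the 13 calls against the mean, 11 had the same direction in the 3 barcode sets, the exceptions being PDE1C and PDE4C. ADCY4, known from endothelium, had 91.7, 111 and 97.5 CPM in endothelial cells, against a mean of 6.6 CPM, 15.2-fold higher on 30 UMIs, and the next level was 57.9 CPM in mural cells. PDE10A had 377, 293 and 224 CPM, against 105 CPM, 2.82-fold higher. GUCY1A1 had 438, 202 and 185 CPM, against 134 CPM, and its 2.05-fold difference ended without barcode set 1 (log2 0.53) and with the mean of per-nucleus CPM (log2 0.36). It also ended at resolution 1 (log2 0.98), with presumed doublets kept (log2 0.98) and after thinning (log2 0.70). GUCY1B1 stayed within 2-fold in endothelial cells, at 56.7 CPM. PDE1C was called on 11 UMIs, with 30.6, 10.1 and 68.2 CPM, and ended below 2-fold with presumed doublets kept (log2 0.49). NOS3, the endothelial nitric oxide synthase, had 80.1 CPM in endothelial cells against 2.85 CPM, 28.1-fold higher, and NOS1 had 150 CPM against 27.3 CPM, 5.49-fold higher. Lower against both mean and median were ADCY5 (4.4-fold), ADCY2 (2.26-fold) and PRKAR2B (2.02-fold on 10 UMIs). PRKG1 had 624 CPM in endothelial cells against 1716 CPM, 2.75-fold lower than the mean and not called against the median. The same held for PDE4A, PDE4B, PDE4DIP and ADCY8, between 2.07-fold and 2.72-fold, whereas PDE4C, called on 3 UMIs (log2 -1.76, -4.03 to -0.21), turned to the other direction against the median (log2 2.37). ADCY2 and PRKAR2B ended below 2-fold with presumed doublets kept (log2 -0.98 and -0.61), as did ADCY8 and PDE4DIP (log2 -0.95 and -0.57). PRKAR2B also ended at resolution 1 (log2 -0.98) and without barcode set 2 (log2 -0.59), and could not be measured after thinning. ADCY2 also ended without set 1 (log2 -0.86), and PDE4DIP when clustered on all genes (log2 -0.90) and without set 1 (log2 -0.93) or 3 (log2 -0.99).

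Microglia, the immune cells of brain tissue, had 3 of 28 measured members at least 2-fold higher, where 18.5% of held-out genes were, and 9 lower, where 16.4% were; against the median the counts were 4 and 4. ADCY7, the cyclase known from immune cells, had 174, 184 and 286 CPM in microglia, against a mean of 3.26 CPM, 64.8-fold higher on 32 UMIs (log2 6.02, 5.47 to 6.51). PDE3B, known for its part in insulin action in fat cells, had 426, 551 and 374 CPM, against 123 CPM, 3.69-fold higher. GUCY1A1 had 543, 312 and 550 CPM, against 113 CPM, 4.1-fold higher, whereas its partner GUCY1B1 had 39.6 CPM on 6 UMIs. PDE5A had 0 UMIs in microglia, which makes it at least 3.97-fold lower than the mean with a floor of 3 UMIs. PDE3A was 8.79-fold lower (39.6 CPM against 348 CPM), ADCY2 3.02-fold, ADCY5 2.45-fold and ADCY9 2.45-fold lower, and these 4 were also lower against the median. ADCY5 ended just below 2-fold with the mean of per-nucleus CPM (log2 -0.93) and without barcode set 2 (log2 -0.999), ADCY9 when clustered on all genes (log2 -0.64) and without set 2 (log2 -0.95), and ADCY2 with presumed doublets kept (log2 -0.51). PDE4B, PDE7B and ADCY8 were 2.87-fold, 3.24-fold and 2.03-fold lower than the mean only, as was PDE2A on 2 UMIs (log2 -2.46, -5.50 to -0.60). POPDC3 and VASP, a substrate of both kinases, were 5.45-fold and 4.21-fold higher, on 11 UMIs each. The class joined 85 nuclei led by APBB1IP, DOCK8 and CX3CR1 with 17 nuclei led by DAB2, F13A1, MRC1 and STAB1, known from macrophages at the borders and vessels of the brain. Those 17 held 47147 of its UMIs and the 85 held 104299. Without the 17, an alternative chosen after the data were seen, 3 members were higher and 8 lower, with log2 ratios of 6.31 for ADCY7, 2.17 for PDE3B and 2.20 for GUCY1A1, while PDE7B moved to log2 -3.66, and PDE2A and PDE5A could no longer be measured. The microglial nuclei carried 8 of 8 astrocyte markers, summing to 3935 CPM against 15160 CPM in astrocytes, beside 4767 CPM of their own 9 markers. The part of these transcripts in the microglial levels was not tested; GUCY1A1 and PDE3B were lower in astrocytes, at 60.6 and 86.8 CPM, and ADCY7 at 1.21 CPM.

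Astrocytes had 5 of 44 measured members at least 2-fold higher, where 8.57% of held-out genes were, and 13 lower, where 16.9% were; against the median the counts were 8 and 7. PDE9A, with high affinity for cGMP, had 159, 166 and 157 CPM in astrocytes, against a mean of 44.0 CPM, 3.65-fold higher. PDE11A had 54.0, 48.5 and 45.7 CPM, against 18.2 CPM, 2.72-fold higher. ADCY2 had 468, 511 and 501 CPM, against 214 CPM, and ADCY8 had 237, 219 and 245 CPM, against 101 CPM, both 2.31-fold higher. PRKG1 had 3194, 3208 and 3199 CPM in astrocytes, against 1429 CPM, 2.24-fold higher, and MRVI1 was 6.88-fold higher. The 5 members were also higher against the median. Lower against both were PRKG2 (5.33-fold), PDE10A (3.1-fold), PDE4D (2.94-fold, 564 CPM against 1657 CPM), PDE6A (2.4-fold), ADCY5 (2.06-fold), ADCY7 (22.0-fold) and PDE4C (26.7-fold), the mean of the last pair being raised by microglia and mural cells. ADCY4 (31.6-fold, 6 UMIs), GUCY1A1, PDE1A, PDE2A, PDE7B and PDE8A (2.08-fold to 3.4-fold) were lower than the mean only, and GUCY1A1 turned to the other direction against the median (log2 0.45). The median of ADCY4 over the other classes was 0, below its level in astrocytes. PDE6A ended below 2-fold without barcode set 2 (log2 -0.94) and ADCY5 with presumed doublets kept (log2 -0.97). NOS3 was 20.9-fold lower in astrocytes on 6 UMIs, its mean over the other classes being raised by endothelial cells. HCN4 was lower on 2 UMIs (log2 -3.31, -6.35 to -1.46).

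Ependymal cells, which line the ventricles with motile cilia, had 3 of 41 measured members at least 2-fold higher, where 13.5% of held-out genes were, and 19 lower, where 17.2% were; against the median the counts were 5 and 7. PDE10A had 214, 246 and 244 CPM in ependymal cells, against a mean of 112 CPM, 2.09-fold higher. It ended just below 2-fold when clustered on all genes (log2 0.99), with presumed doublets kept (log2 0.94) and without barcode set 3 (log2 0.99). PDE6B and GUCY2D, known from photoreceptors, were 3.16-fold and 22.5-fold higher on few UMIs. PDE6B had 25.9, 40.7 and 33.9 CPM on 52 UMIs, and GUCY2D had 11.1, 12.4 and 18.1 CPM on 21 UMIs, against 0.6 CPM. AKAP14 and AKAP3, anchoring proteins known from cilia and sperm tails, were 32.0-fold higher (101 CPM against 3.15 CPM) and 4.01-fold higher, and NOS1, MRVI1, RAPGEF3 and BVES were between 4.92-fold and 8.41-fold lower. Lower against both mean and median were GUCY1A1 (14.0-fold), PDE4B (9.22-fold), PDE7B (8.09-fold), PDE3A (5.46-fold), ADCY5 (4.55-fold), PDE4D (4.39-fold) and GUCY1A2 (4.24-fold). Their log2 ratios over the barcode sets all lay below 0. The other 12 were lower than the mean only. ADCY4 had 0 UMIs and was at least 9.15-fold lower than the mean with a floor of 3 UMIs. PDE4C and PDE1C had 3 UMIs each, with log2 ratios of -4.17 (-6.44 to -2.62) and -3.47 (-5.75 to -1.93). ADCY1, ADCY7, GUCY1B1, PDE1B, PDE2A, PDE3B, PDE4A, PDE5A and PDE8A were between 2.18-fold and 5.07-fold lower than the mean. ADCY7, at the upper end on 8 UMIs, turned to the other direction against the median (log2 2.09). With presumed doublets kept, ADCY1, PDE1B, PDE2A and PDE4A ended below 2-fold (log2 between -0.85 and -0.29), PDE4A also without barcode set 1 or 3, and GUCY1B1 ended without set 2 or 3.

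In the oligodendrocyte lineage, oligodendrocytes were set against their precursors. Of 21 members measured, PDE8A was the 1 at least 2-fold higher in oligodendrocytes, where 13.9% of held-out genes were, and 7 were lower, where 18% were. PDE8A, a cAMP phosphodiesterase of high affinity, had 856, 821 and 839 CPM in oligodendrocytes, against 106, 94.7 and 122 CPM in precursors, 7.84-fold higher (log2 2.97, 2.66 to 3.30). Committed precursors, the stage between, had 123 CPM on 22 UMIs. ADCY8 had 31.7, 19.5 and 16.7 CPM in oligodendrocytes, against 283, 281 and 253 CPM in precursors, 12.5-fold lower. PDE7B had 90.6, 50.6 and 63.3 CPM in oligodendrocytes, against 376, 483 and 452 CPM in precursors, 6.5-fold lower.

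The other lower members were PDE9A, PDE10A, PDE3A, ADCY9 and PDE1A. PDE9A was 10.8-fold lower on 5 UMIs in oligodendrocytes, and PDE10A 4.47-fold lower, with 24.4 CPM in oligodendrocytes against 109 CPM in precursors. PDE9A, PDE10A and ADCY8 reached 50 UMIs in precursors only, so the count of lower members rests in part on members admitted that way. The held-out genes were admitted by the same rule. PDE3A was 3.09-fold lower, with 63.4, 85.6 and 83.3 CPM in oligodendrocytes against 205, 331 and 187 CPM in precursors. Committed precursors had 224 CPM of PDE3A and 83.8 CPM of PDE7B, so PDE3A stood near the precursors and PDE7B near the oligodendrocytes. ADCY9 was 2.33-fold and PDE1A 2.12-fold lower, and PDE1A ended below 2-fold without barcode set 2 (log2 -0.82). PDE4B, which stayed within 2-fold, was higher in the lineage than in any other class, with 1849 CPM in precursors, 1962 CPM in committed precursors and 2019 CPM in oligodendrocytes. AKAP12 was 6.45-fold lower in oligodendrocytes and GNAI1 4.02-fold higher. With a minimum of 20 UMIs in place of 50, 14 members were lower.

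**Figure D5:**
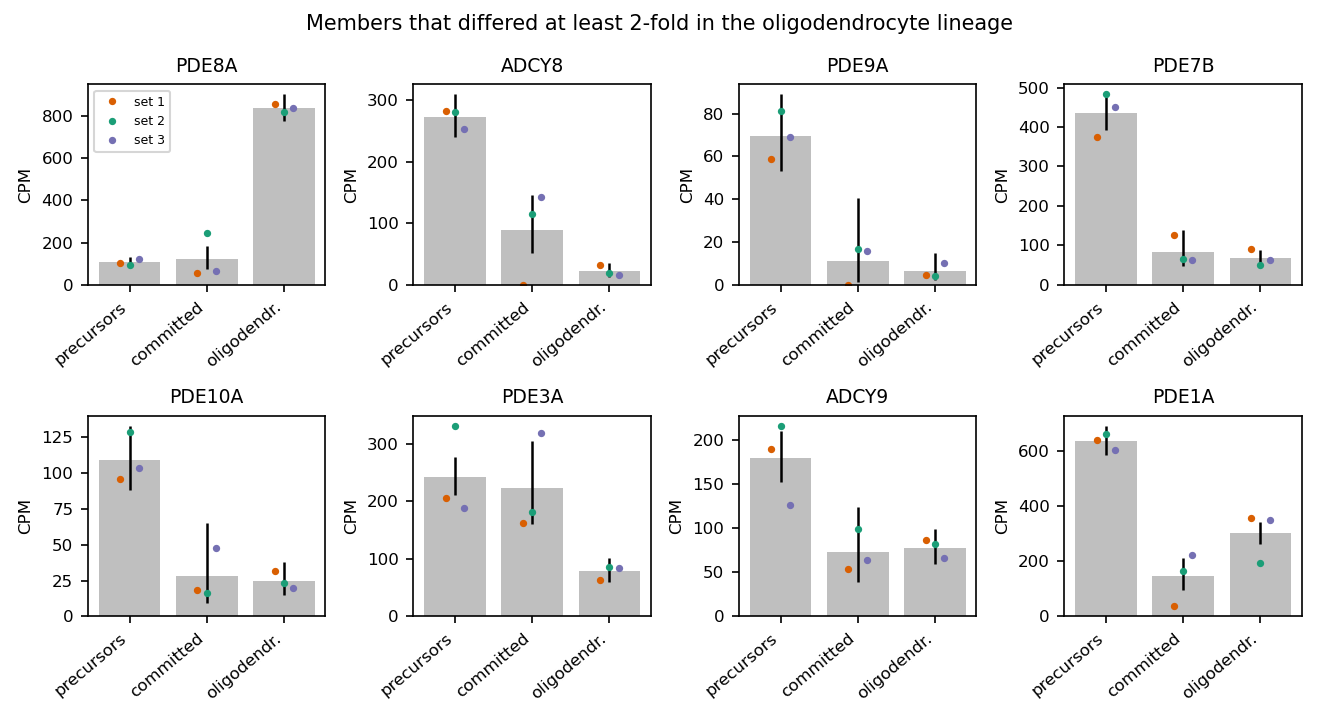
CPM of the 8 members that differed at least 2-fold between oligodendrocytes and precursors, at 3 stages from precursors to committed precursors and oligodendrocytes, with 95% counting intervals as lines and barcode sets as points. PDE8A is high at the last stage only, while PDE3A is still high in committed precursors.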

How the data were processed

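Nuclear RNA of 12 labelled samples in 1 group, libraries 1 to 4 of specimens 1 to 3, is held in 1 table. The authors deposited it as raw UMI counts. The submitters' processing notes list fastp, Cell Ranger 3.0.0 and GRCh38; 5142 rows carry macaque Ensembl identifiers, 797 of which a reference table of another assembly named, so the annotation is not settled and no coordinates are given. No per-sample depth is known; the barcode sets held 9201, 8900 and 8299 nuclei and 52231758, 51570932 and 47724193 UMIs. Within each set the nuclei with the highest Scrublet scores (0.8% per 1000 nuclei) were left out as presumed doublets, 1862 in all. Members, pathway lists and a share of the other genes picked by a hash of the name (9858 in all) were held out, and 9850 genes were clustered with scanpy 1.11.5 (2000 variable genes, 30 components, 15 neighbours, Leiden resolution 0.5). Clusters were named by mean log2 marker ratios, or for neurons by GAD1 plus GAD2 over 300 CPM, or RBFOX3 over 600 CPM and SV2B over 25 CPM; granule-like clusters had PROX1 over 150 CPM. These cut-offs were chosen with the clusters in view. Counts were summed per class. A gene was measured with at least 50 UMIs on one side, where each side would hold at least 10 at the higher level, and called at 2-fold. A gene low on one side could thus be measured only through its level on the other. Among the higher calls, beside the mural members named above, this held for ADCY7 in microglia, ADCY4 and PDE1C in endothelial cells and GUCY2D in ependymal cells. Lower calls could rest on the other side too, as for ADCY8, PDE9A and PDE10A in oligodendrocytes, which reached 50 UMIs in precursors only. Exact 95% intervals of a ratio to a mean take the mean as fixed. All called members are named, as are list genes at least 2-fold different between the neuron types or 4-fold in other classes; members with the widest ratios are given by barcode set, except most of those lower than a mean. Members, lists and comparisons were chosen with earlier results of these data known. Alternatives were clustering on all genes, resolution 1, doublets kept, thinning to 1000 UMIs, a minimum of 20 UMIs, the mean of per-nucleus CPM and leaving out a barcode set. The calling was tested on simulated counts.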

Additional observations from a re-analysis of the deposited data

How the results depend on the processing

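Of 118 calls of members over the 8 comparisons, 63 were made again under every setting run, and 115 kept their direction in every setting counted. A call was also lost where the member could no longer be measured. This was so for ADCY7 between the neuron types, whose ratio stayed past 2-fold. Counts moved by over 1.5 times as follows. Without the granule-like cluster, 7 members were higher in excitatory neurons. At 20 UMIs, 14 were lower in oligodendrocytes. Clustered on all genes, 5 were higher in microglia. With presumed doublets kept, 2 were higher and 5 lower in endothelial cells, thinned to 1000 UMIs per nucleus 2 were higher, and with the mean of per-nucleus CPM 15 were lower. Leaving out 1 barcode set at a time gave 1 to 3 higher members in endothelial cells, 1 without set 1, and 5 to 9 lower ones in microglia, 5 without set 2. The cause was not tested. Clustering on all genes and keeping doublets also changed which nuclei a class held. ADCY5 in mural cells went from 54 to 17 UMIs with presumed doublets kept, and PDE7B in microglia from 17 to 83 UMIs when clustered on all genes. Against the median of the other classes, like leaving out the macrophage-led cluster an alternative added after the data were seen, 8 members were higher and 7 lower in astrocytes, 5 and 7 in ependymal cells, 4 lower in microglia, 10 higher and 3 lower in endothelial cells and 3 lower in mural cells. No share of held-out genes was computed against the median. Under it GUCY1A1 in astrocytes (log2 0.45), ADCY7 in ependymal cells (2.09) and PDE4C in endothelial cells (2.37) reversed. Ratios to the median were not counted where that median or the member's own count was 0. ADCY4 in astrocytes was such a case: its median over the other classes was 0, below its own level on 6 UMIs. The mean is raised by microglia for ADCY7, by mural cells for PDE4C, and by mural cells, microglia and endothelial cells for GUCY1A1. Sub-cluster counts stayed within 1.5 times (inhibitory 14 to 16, excitatory 15 to 16), but with presumed doublets kept PDE2A left the inhibitory calls and PDE4B the excitatory ones. No paired analysis was possible because the labels form 1 group and no column carries a sample. Microglia, endothelial and mural classes hold 102 to 156 nuclei, so members with few UMIs there could not be measured.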
